A study of Mus musculus with 6 samples.

Results

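The mRNAs of 10 genes whose products set how long cytokine mRNAs last were measured by RNA-seq in macrophages grown from mouse bone marrow with macrophage colony-stimulating factor (20 ng/mL). The genes were found by symbol in a table of counts for 55335 genes, and each of the 10 symbols matched a single identifier. In the PAC-CM-KD group (3 libraries) the macrophages received 400 µM kinsenoside (KD), a glycoside from orchids, along with PAC-CM, the culture medium of injured acinar cells of the pancreas. In the PAC-CM group (3 libraries) they received that medium without kinsenoside. PAC-CM was added on day 5 in both groups, and no library without it is among the samples. The values therefore compare the medium with and without kinsenoside. The labels give neither mouse strain, age, nor the time between treatment and harvest, and the origin of the replicates (culture or mouse) is not stated, so the spread behind each p-value is that of these libraries and may be technical.

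Inflammatory mRNAs such as those of TNF and interleukin-1 are made in bursts and destroyed quickly, and much of that destruction is directed by short elements in their 3′ untranslated regions (3′ UTRs). Tristetraprolin, encoded by Zfp36, and its relatives encoded by Zfp36l1 and Zfp36l2 bind AU-rich elements through paired zinc fingers and bring the CCR4-NOT deadenylase complex to the mRNA. The endonuclease Regnase-1 (Zc3h12a), its relative Regnase-3 (Zc3h12c) and the Roquin proteins (Rc3h1, Rc3h2) recognise stem-loops instead. Among other AU-rich binders, KSRP (Khsrp) promotes decay, AUF1 (Hnrnpd) mostly does, and HuR (Elavl1) mostly stabilises its mRNAs. Such regulators are themselves controlled in large part by phosphorylation and cleavage, which mRNA counts do not measure.

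Sequences of the elements are shown first, because they tie the regulators to the transcripts described further on. The AU-rich heptamer TATTTAT (written with T for U) was counted, overlapping matches included, on the mRNA strand of the annotated 3′ UTR, in the coding transcript with the longest 3′ UTR in GENCODE M21 (GRCm38). It was present in 7 of the 10 regulators and in 29.9% of 11752 tested genes that have such a UTR. The regulators' 3′ UTRs had a median length of 2948 bases, against 1164 bases for those genes, and a longer UTR has more chances to hold the letters. Elavl1 held 8 heptamers, Zfp36, Zfp36l1, Zfp36l2 and Rc3h2 held 3 each, Zc3h12c and Rc3h1 held 2 each, and Zc3h12a, Khsrp and Hnrnpd held 0. Printed below, with each heptamer in capitals, are 30-base windows from Zfp36 (chr7:28376958-28376987, minus strand), whose product binds such elements; from Elavl1 (chr8:4285777-4285806, minus strand), the regulator with most heptamers; and from Zc3h12c (chr9:52114862-52114891, minus strand), the regulator whose level differed most between the groups. For comparison, the next 3 are from unstable cytokine mRNAs: Il1b (chr2:129364802-129364831, minus strand), Il1a (chr2:129300103-129300132, minus strand) and Tnf (chr17:35199677-35199706, minus strand). The last is the stem-loop element of Tnf that Roquin binds (chr17:35199578-35199607, minus strand), with the letters TTCTGTGAA in capitals; those letters are in 2.73% of the same 11752 UTRs.
Zfp36: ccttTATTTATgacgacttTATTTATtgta
Elavl1: tTATTTATTTATTTATTTATtttTATTTAT
Zc3h12c: tgctataatcatTATTTATaggaacaaaga
Il1b: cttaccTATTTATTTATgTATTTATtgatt
Il1a: tctatgTATTTATaaataTATTTATgataa
Tnf: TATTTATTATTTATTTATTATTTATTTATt
Tnf stem-loop: acagacatgttTTCTGTGAAaacggagctg
A match describes the letters only and does not show that a protein was bound in these cells.

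The libraries held 43434292, 42199166 and 41125059 counts in PAC-CM-KD replicates 1 to 3, and 43054066, 47461702 and 44113604 counts in PAC-CM replicates 1 to 3. Levels are given as CPM, the counts of a gene per 1000000 counts of its library. The regulators had at least 1260 counts in each library, and all 10 passed the filter on low counts. All 6 macrophage markers were present, with summed levels of 17531 to 19984 CPM in PAC-CM-KD and 16314 to 17673 CPM in PAC-CM libraries. The 8 acinar markers summed to between 5.03 and 7.09 CPM in PAC-CM-KD and between 6.3 and 6.97 CPM in PAC-CM libraries, and the 4 neutrophil markers stayed at or under 0.691 CPM with Elane at 0 throughout. The lymphocyte markers Cd3e, Cd3g and Cd79a summed to 0 in all PAC-CM-KD libraries, where 3 counts would be 0.0691 to 0.0729 CPM, and to between 0.0843 and 0.255 CPM in PAC-CM libraries, so these groups did not overlap. The part of such traces in the results below was not tested. The 3 dendritic cell markers summed to at most 7.85 CPM in PAC-CM-KD and 8.58 CPM in PAC-CM libraries, and the 3 fibroblast markers to at most 0.645 and 0.653 CPM. In bulk RNA, fewer cells of a type and less RNA per cell cannot be told apart.

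With kinsenoside the log2 fold changes of these regulators lay between -0.43 and 0.34, 5 above 0 and 5 below, with a median of 0.02, against -0.006 over 13901 tested genes. None of the 10 passed an adjusted p of 0.05 (edgeR quasi-likelihood test, Benjamini-Hochberg over all tested genes), where the background of calls was 0.511%. At an unadjusted p under 0.05 there were 2 of 10, Zc3h12c (lower) and Rc3h2 (higher), against 14.9% of all tested genes. The groups did not overlap in CPM for 1 of 10, Zc3h12c, against 22.5% of all tested genes in either direction and 15.7% in the lower one. CPM was scaled by total counts, without the TMM factors of the edgeR test. With total count scaling the median log2 fold change over all tested genes was -0.050, so non-overlap in CPM leans towards lower levels with kinsenoside. If the TMM factors were applied, the groups of Rc3h2 would also be apart, in the higher direction. The share of all tested genes apart with those factors was not computed. DESeq2 called 1 of 10, also Zc3h12c, where its background was 3.53%, and limma-voom called 0 of 10, where its background was 0.281%. Among 10 genes, counts of 0 to 2 lie near these shares. A missed threshold does not show equal levels, and the unadjusted 95% intervals of the 10 log2 fold changes reached as low as -0.67 (Zc3h12a) and as high as 0.82 (Zfp36l1).

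**Figure D1:**
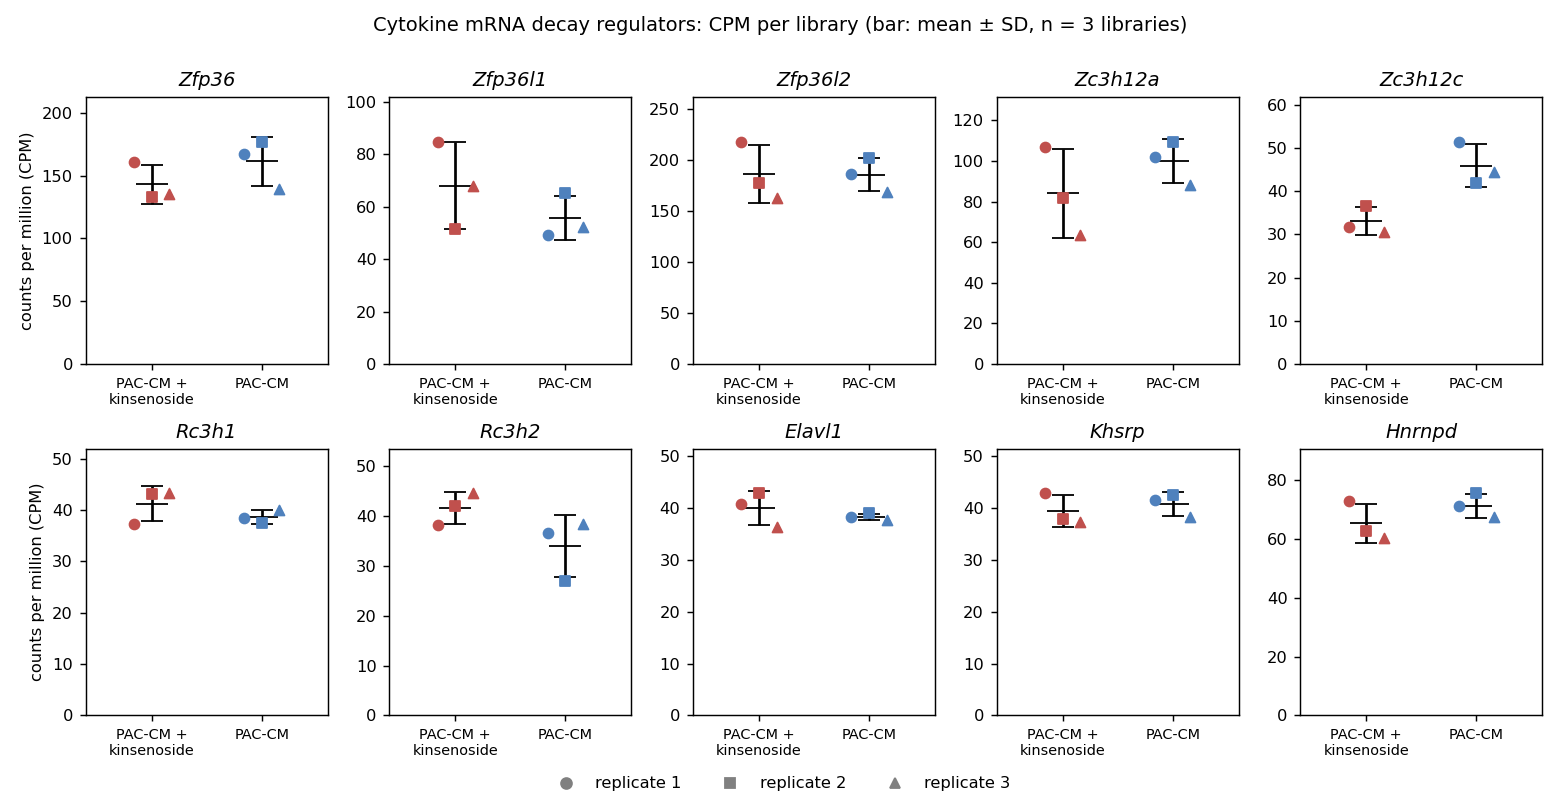
Level of each regulator in CPM (vertical axes, from 0) in each library, with PAC-CM-KD (labelled PAC-CM + kinsenoside) left of PAC-CM; symbols mark the replicate number, and bars show mean ± SD of 3 libraries. In these CPM by total counts, Zc3h12c is the gene whose groups do not overlap, at 30.6 to 36.7 CPM with kinsenoside and 41.9 to 51.5 CPM without.

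Zc3h12c encodes Regnase-3, a nuclease of macrophages and other myeloid cells related to Regnase-1. It lies on chromosome 9 (ENSMUSG00000035164, 52111344 to 52168572, minus strand, GRCm38). Its level was 31.8, 36.7 and 30.6 CPM in PAC-CM-KD replicates 1 to 3, against 51.5, 41.9 and 44.5 CPM in PAC-CM replicates 1 to 3. The highest kinsenoside library was below the lowest PAC-CM library, so the groups did not overlap. The means were 33.0 ± 3.21 CPM with kinsenoside and 46.0 ± 4.95 CPM without (SD, n = 3 each), and the log2 fold change was -0.43 (SE 0.0985, 95% interval -0.66 to -0.21), or 0.741-fold. The edgeR adjusted p was 0.106. DESeq2 gave 0.0173, the lowest of 15 alternatives, whose adjusted p ran up to 0.31, and the estimate stayed between -0.51 and -0.34 in all 15.

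Zc3h12a encodes Regnase-1, which cleaves Il6, Il12b and its own mRNA (chromosome 4, ENSMUSG00000042677, 125118423 to 125127840, minus strand). It had 107, 81.9 and 63.4 CPM in PAC-CM-KD replicates 1 to 3, against 102, 109.5 and 88.1 CPM in PAC-CM replicates 1 to 3. Kinsenoside replicate 1 lay among the PAC-CM libraries and the other two lay below all of them, so the groups overlapped. The log2 fold change was -0.20 (SE 0.193, edgeR adjusted p = 0.684). Without PAC-CM-KD replicate 1 it was -0.42 (adjusted p = 0.198), and without PAC-CM-KD replicate 3 it was -0.04 (adjusted p = 0.944). Summed over both Regnase genes, levels were 139, 119 and 94.0 CPM with kinsenoside and 154, 151 and 133 CPM without, and the groups overlapped.

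The Zfp36 family had the highest summed CPM of these regulators, not corrected for gene length, and its groups overlapped. Summed over the 3 genes, levels were 465, 362 and 366 CPM in PAC-CM-KD replicates 1 to 3, against 402, 445 and 361 CPM in PAC-CM replicates 1 to 3. The ranges of the groups nearly coincided, with means of 398 ± 58.1 and 403 ± 41.9 CPM (SD, n = 3 each).

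Zfp36 itself (chromosome 7, ENSMUSG00000044786, 28376784 to 28380253, minus strand), the tristetraprolin gene, had 161, 133 and 135 CPM in PAC-CM-KD replicates 1 to 3, against 167, 177 and 139.6 CPM in PAC-CM replicates 1 to 3. Kinsenoside replicate 1 lay within the PAC-CM range and the other two just below it. The log2 fold change was -0.12 (SE 0.108, 95% interval -0.37 to 0.12, edgeR adjusted p = 0.647). Zfp36l2 (chromosome 17, ENSMUSG00000045817, 84183931 to 84187947, minus strand), a relative known for its role in blood stem cells and lymphocytes, had 218, 177 and 163 CPM with kinsenoside and 186, 202 and 169 CPM without. Its highest and lowest libraries were both kinsenoside libraries, and its log2 fold change was 0.05 (SE 0.116, adjusted p = 0.901).

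Zfp36l1 (chromosome 12, ENSMUSG00000021127, 80107754 to 80113013, minus strand) acts with Zfp36 and Zfp36l2 on AU-rich mRNAs. It had 84.9, 51.7 and 67.8 CPM in PAC-CM-KD replicates 1 to 3, against 49.3, 65.2 and 52.3 CPM in PAC-CM replicates 1 to 3. Replicates 1 and 3 of kinsenoside were above all PAC-CM libraries and replicate 2 was inside their range. The log2 fold change of 0.34 had an SE of 0.2 (edgeR adjusted p = 0.494), and it was 0.15 without PAC-CM-KD replicate 1 and 0.51 without PAC-CM-KD replicate 2. It lay above 0 in all 15 alternatives and passed in none.

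The Roquin genes, whose products bind stem-loops and bring deadenylases to Tnf and other mRNAs, had estimates above 0. Rc3h2 (chromosome 2, ENSMUSG00000075376, 37370069 to 37422903, minus strand) had 38.2, 42.0 and 44.5 CPM in PAC-CM-KD replicates 1 to 3, against 36.5, 26.9 and 38.4 CPM in PAC-CM replicates 1 to 3. In CPM by total counts the groups met at their edges, at 38.2 and 38.4 CPM, and PAC-CM replicate 2 was far below the rest. The TMM factors of the libraries at those edges, 0.9851 for PAC-CM-KD replicate 1 and 1.015 for PAC-CM replicate 3, would set the groups apart. The log2 fold change was 0.34 (SE 0.133, 95% interval 0.03 to 0.64, edgeR unadjusted p = 0.0351, adjusted p = 0.299), and it was 0.20 without PAC-CM replicate 2. Rc3h1 (chromosome 1, ENSMUSG00000040423, 160906418 to 160974978, plus strand) had 37.3, 43.2 and 43.3 CPM with kinsenoside and 38.5, 37.4 and 40.0 CPM without. Kinsenoside replicate 1 was the lowest of its 6 values, and the log2 fold change was 0.14 (SE 0.0792, adjusted p = 0.454).

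The other AU-rich binders varied little. Elavl1 (chromosome 8, ENSMUSG00000040028, 4285382 to 4325413, minus strand), the gene of the stabiliser HuR, had 40.8, 42.9 and 36.4 CPM with kinsenoside and 38.3, 39.0 and 37.8 CPM without. The PAC-CM values lay inside the range of the kinsenoside values, and the log2 fold change was 0.11 (SE 0.0745, 95% interval -0.06 to 0.28, edgeR adjusted p = 0.561). It overlaps Ccl25 on the opposite strand, which had 128 to 181 counts; whether reads were assigned by strand is unknown, and without strand those of the overlap cannot be told apart.

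Khsrp (chromosome 17, ENSMUSG00000007670, 57021051 to 57031522, minus strand) had 42.8, 37.9 and 37.3 CPM in PAC-CM-KD replicates 1 to 3, against 41.5, 42.5 and 38.2 CPM in PAC-CM replicates 1 to 3. Its log2 fold change of -0.01 (SE 0.0796, 95% interval -0.19 to 0.18, edgeR adjusted p = 0.984) was the smallest of the 10, and its sign changed with the scaling, being 0.001 with RLE factors. Hnrnpd (chromosome 5, ENSMUSG00000000568, 99955935 to 99978938, minus strand) had 72.9, 62.7 and 60.4 CPM with kinsenoside and 71.1, 75.6 and 67.4 CPM without, with an estimate of -0.08 on the log2 scale (SE 0.0877, adjusted p = 0.715). For both genes kinsenoside replicates 2 and 3 lay below all PAC-CM libraries, while replicate 1 lay above them all for Khsrp and inside their range for Hnrnpd. No annotated gene overlapping a regulator other than Elavl1 and found in the table had more than 38 counts in any library.

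Kinsenoside replicate 1 was the highest of its group for 6 of the 10 regulators and the lowest for 2. In the PAC-CM group replicate 2 was the highest for 7 of 10 and replicate 3 the lowest for 6. The matching shares over all tested genes were not computed, so these counts do not show that the regulators varied together.

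**Figure D2:**
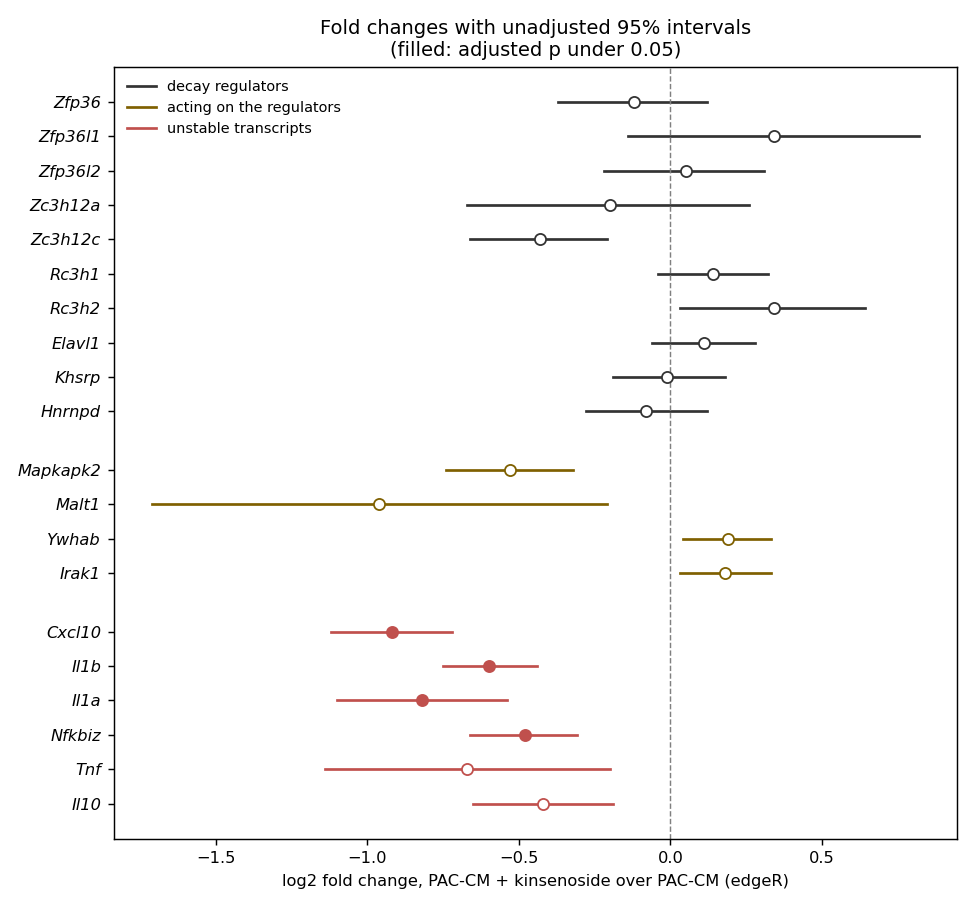
Log2 fold change of PAC-CM-KD over PAC-CM (horizontal axis, edgeR) with unadjusted 95% intervals for the 10 regulators, 4 genes that act on them and 6 unstable transcripts; filled points have an adjusted p under 0.05. The filled points are Cxcl10, Il1b, Il1a and Nfkbiz, all left of 0, while no regulator is filled and Zc3h12c is the regulator farthest below 0 at -0.43. The genes other than the regulators were picked with their p-values or levels known.

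Levels can be compared between genes only per length, here as CPM per kilobase of the union of annotated exons, averaged over the 6 libraries. Zfp36l2 led at 52.7 CPM per kb, followed by Zfp36 at 43.9, Zc3h12a at 31.9 and Zfp36l1 at 20.7 CPM per kb. These 4 stood at or above the 85.7th percentile of tested genes, and the first 3 at or above the 90.1st. Hnrnpd and Khsrp followed at 9.29 and 9.27 CPM per kb, then Zc3h12c at 5.77, Elavl1 at 3.79, Rc3h1 at 3.53 and Rc3h2 at 1.92 CPM per kb. Over the 6 libraries the ranges overlapped between Zfp36l2 and Zfp36, Zc3h12a and Zfp36l1, Hnrnpd and Khsrp, and Elavl1 and Rc3h1, and did not overlap between the other neighbours. With the length of the longest coding transcript instead, the 4 leading genes stayed the same but Zfp36 came first at 54.6 CPM per kb, against 52.7 for Zfp36l2. Elavl1, at 6.83 CPM per kb, then came before Zc3h12c, at 5.84, and Rc3h2, at 4.22, before Rc3h1, at 3.63. Khsrp, at 10.1 CPM per kb, came just before Hnrnpd, at 10.0. The order of such neighbours therefore depends on the length used.

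By root mean square distance between log2 CPM profiles, each centred on its mean over the 6 libraries, the genes nearest to Zc3h12c among 9154 with a mean of at least 5 CPM were Tlr2, Lhx2 and Acat3, at 0.0391, 0.0492 and 0.053 log2 units. Tlr2, which encodes a receptor for bacterial lipoproteins, had 180.3, 211 and 162 CPM with kinsenoside and 288, 231 and 249 CPM without. As with Zc3h12c, replicate 2 was the highest of the kinsenoside libraries and the lowest of the PAC-CM libraries. Tlr2 was chosen for its nearness over these same libraries, so a like order is built in. It did not pass (edgeR adjusted p = 0.14). Nearest to Zfp36l2, the regulator of highest mean CPM, were Sh2d3c, Zc3h4 and Snx18, at 0.0229, 0.0259 and 0.0283 log2 units.

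Genes known to act on the regulators were led by Mapkapk2, which encodes MK2, the kinase below p38 that phosphorylates tristetraprolin and thereby holds back decay of its targets. It had 148, 142 and 122 CPM in PAC-CM-KD replicates 1 to 3, against 217, 213 and 184 CPM in PAC-CM replicates 1 to 3, and the groups did not overlap. The log2 fold change was -0.53 (SE 0.093, 95% interval -0.74 to -0.32). With an edgeR adjusted p of 0.0601 it did not pass. The estimate stayed between -0.60 and -0.45 over 15 alternatives, and the adjusted p lay between 0.000235, with DESeq2, and 0.229, without PAC-CM replicate 2. It passed in 5 of the 15: DESeq2, total count scaling (0.0444), no filter (0.0361), the replicate block (0.0369) and without PAC-CM-KD replicate 1 (0.0468).

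Malt1 encodes the paracaspase that cleaves Regnase-1 and the Roquins in lymphocytes. It had 82.4, 134 and 64.6 CPM in PAC-CM-KD replicates 1 to 3, against 223, 179.8 and 162 CPM in PAC-CM replicates 1 to 3. The groups did not overlap, but the kinsenoside libraries spread widely. The difference, -0.96 on the log2 scale with an SE of 0.298, did not pass (edgeR adjusted p = 0.242, between 0.0887 and 0.496 over 15 alternatives). In the other direction, Ywhab, a 14-3-3 protein of the group that binds phosphorylated tristetraprolin, had 0.19, and Irak1, a kinase of Toll-like receptor signalling, had 0.18 (adjusted p = 0.23 and 0.261). Dusp1, the phosphatase that switches p38 off, chosen for mention after its values were seen, had 0.07 (adjusted p = 0.767). In this list of 14 genes, 0 passed by edgeR, 4 had an unadjusted p under 0.05, against 14.9% of all tested genes, and the median log2 fold change was 0.03. Mapkapk2 and Malt1 were among 3 genes of the list whose groups were apart in CPM and lower with kinsenoside. For 2 others the groups were apart and higher. All tested genes gave 15.7% lower and 6.86% higher.

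The enzymes that carry out decay showed no called change by edgeR either. Of 17 deadenylation genes, 0 passed and 0 had an unadjusted p under 0.05, and estimates lay between -0.24 (Cnot11, a CCR4-NOT subunit) and 0.12, with a median of 0.05. Parn, a poly(A)-specific ribonuclease, had -0.21 and the CCR4-NOT subunits Cnot6 and Cnot8, both deadenylases, 0.09 each. Of 20 decapping and exonuclease genes, 0 passed and 2 had an unadjusted p under 0.05, a smaller share than the 14.9% of all tested genes. These were Skiv2l, the helicase that feeds the cytoplasmic exosome, at -0.27 (38.6, 41.4 and 33.8 CPM with kinsenoside, against 48.5, 47.6 and 45.6 CPM without) and Ddx6, a helicase of decapping, at 0.20 (199, 199 and 212 CPM with kinsenoside, against 177, 180.1 and 193 CPM without). Both pairs of groups were apart, with edgeR adjusted p of 0.186 and 0.221. Of these 20 genes, groups were apart in CPM for 2 that were lower and 1 that was higher with kinsenoside. All tested genes gave 15.7% and 6.86%. The decapping factors Lsm1 and Patl1 had 0.18 and 0.15 (adjusted p = 0.44 and 0.478).

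Of 21 further RNA-binding proteins and partners, 17 were tested. By edgeR 0 passed and 3 had an unadjusted p under 0.05, a share near the 14.9% of all tested genes: Tia1, which holds back translation of Tnf mRNA, at 0.55, Cpeb4, a cytoplasmic polyadenylation factor, at 0.32 and Ybx1, an abundant mRNA packaging protein, at 0.13 (adjusted p = 0.181, 0.225 and 0.31). Hnrnpdl, a relative of Hnrnpd, had 0.12 (adjusted p = 0.419). Chosen after their values were seen, Arid5a, which shields Il6 mRNA from Regnase-1, had 0.09, and Zc3h12d, a further Regnase relative, had -0.14 (adjusted p = 0.664 and 0.563). Elavl2, Elavl3, Elavl4 and Zc3h12b fell under the filter. Over these 4 lists together 0 of 68 tested genes passed by edgeR, where the background was 0.511%, and the median was 0.02. With DESeq2 1 passed.

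Unstable inflammatory transcripts, taken from a list of 33 known or likely targets of such regulators, included 4 that passed. Of 32 tested, 4 fell and 0 rose by edgeR, against a background of 0.302% for lower and 0.209% for higher calls. Of the estimates 15 lay above 0 and 17 below, and the median was -0.06. The list was written with the behaviour of Cxcl10, Il1a, Il1b and Nfkbiz in these libraries already known, so their count is no independent evidence. Groups did not overlap for 10 genes that were lower and 1 that was higher with kinsenoside, where all tested genes gave 15.7% and 6.86%. These counts use CPM by total counts, which leans towards lower levels with kinsenoside, as said above.

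Il1b, which encodes interleukin-1β and has 3 heptamers, was at 1057, 1057 and 935 CPM in PAC-CM-KD replicates 1 to 3, against 1548, 1554 and 1652 CPM in PAC-CM replicates 1 to 3. Il1a, which also has 3, was at 727, 702 and 520 CPM with kinsenoside and 1255, 1166 and 1132 CPM without. Nfkbiz, an NF-kB cofactor whose mRNA Regnase-1 and Roquin control, was at 43.7, 41.9 and 37.0 CPM with kinsenoside and 59.8, 56.8 and 60.5 CPM without. In each of these the groups did not overlap. Il1a and Il1b overlap noncoding genes, and Cxcl10 overlaps Art3, on the opposite strand. The log2 fold changes were -0.60, -0.82 and -0.48 (edgeR adjusted p = 0.0152, 0.0403 and 0.0419). The calls were lost with fewer libraries while the estimates stayed close: without PAC-CM replicate 1, 2 or 3 or PAC-CM-KD replicate 2 the adjusted p was between 0.0627 and 0.0824 for Il1b, between 0.117 and 0.157 for Il1a and between 0.136 and 0.17 for Nfkbiz, and without PAC-CM-KD replicate 3 it was 0.0811 for Nfkbiz. The estimates with a library left out lay between -0.63 and -0.55 for Il1b, -0.91 and -0.69 for Il1a and -0.54 and -0.42 for Nfkbiz. Il1a and Nfkbiz also missed the threshold with limma-voom (adjusted p = 0.0548 and 0.0602) and non-robust estimates (0.0542 and 0.061), and Nfkbiz with the replicate block (0.0769), which left 3 calls in the list. The call of Cxcl10, an interferon-induced chemokine without the heptamer, held in all 15 alternatives (log2 fold change -0.92, adjusted p = 0.00482, 3.66e-16 to 0.0337 over the alternatives).

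Tnf and Il10 were chosen for description after their values were seen. Tnf, the founding target of tristetraprolin, has 8 heptamers and was at 85.4, 91.8 and 56.7 CPM in PAC-CM-KD replicates 1 to 3, against 148, 114 and 121 CPM in PAC-CM replicates 1 to 3. The groups did not overlap, but the log2 fold change of -0.67 (SE 0.193, 95% interval -1.14 to -0.20) did not pass, with an edgeR adjusted p of 0.203 and a range over 15 alternatives of 0.00882, with DESeq2, to 0.442. Il10, an anti-inflammatory cytokine with 4 heptamers, was at 15.1, 12.8 and 12.9 CPM with kinsenoside and 19.3, 19.7 and 17.5 CPM without. Its groups did not overlap either, and its log2 fold change was -0.42 (adjusted p = 0.117, between 0.027 and 0.338 over the alternatives).

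**Figure D3:**
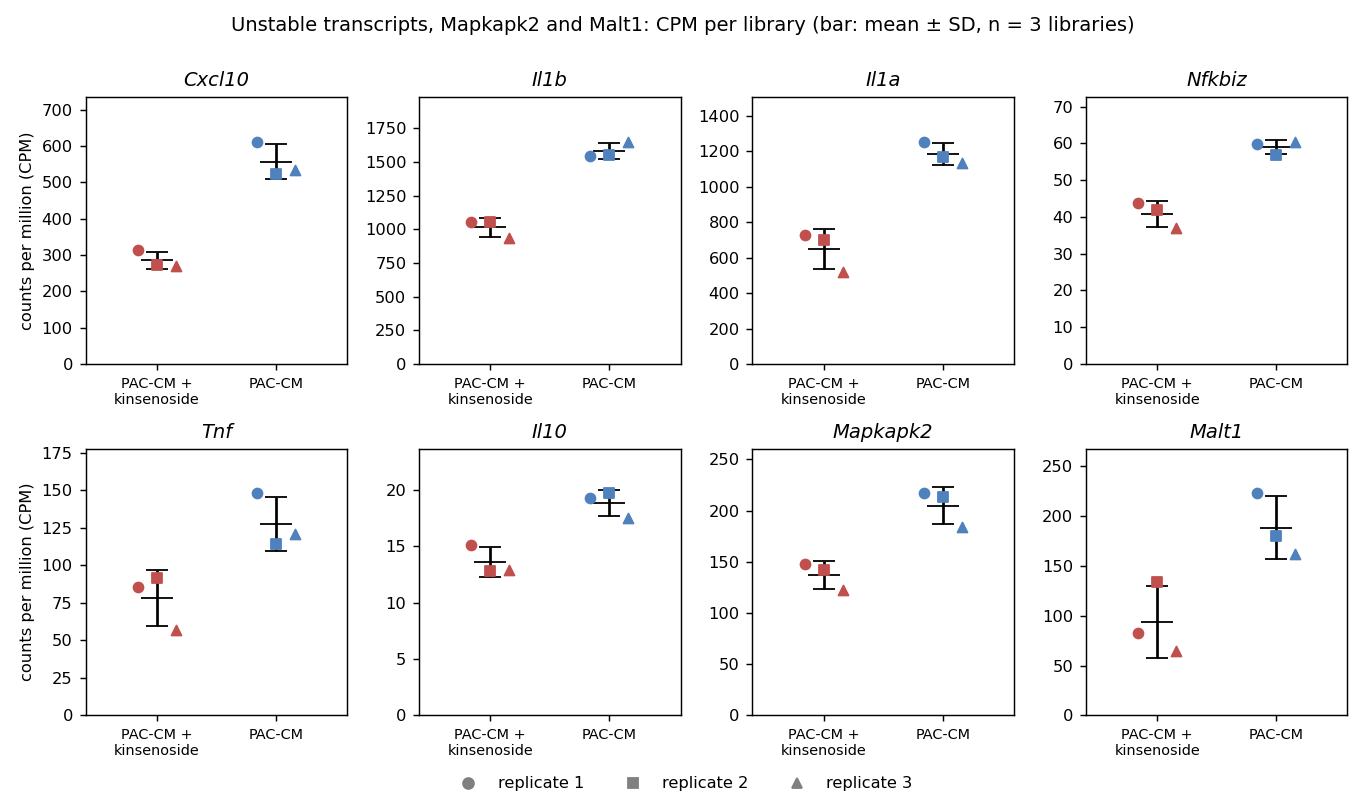
Levels in CPM (vertical axes, from 0) of 6 unstable transcripts and of Mapkapk2 and Malt1 in each library, with PAC-CM-KD (labelled PAC-CM + kinsenoside) left of PAC-CM; symbols mark the replicate number, and bars show mean ± SD of 3 libraries. In all 8 genes the kinsenoside libraries lie below the PAC-CM libraries, with Il1b at 935 to 1057 CPM against 1548 to 1652 CPM. The genes were picked with their values known, so this shared direction is no independent evidence. Of 32 tested unstable transcripts, 15 had estimates above 0.

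Of 8 chemokines in the list, Cxcl10 fell, and the other 7 had estimates above 0 and did not pass by edgeR. The median of the 8 was 0.50. For each of the 7, PAC-CM-KD replicate 1 was the highest library of its group. PAC-CM-KD replicate 3 was above all PAC-CM libraries for Cxcl3 alone. Ccl2, for example, was at 848, 584 and 453 CPM in PAC-CM-KD replicates 1 to 3, against 459, 491 and 476 CPM in PAC-CM replicates 1 to 3. Cxcl3, a neutrophil attractant with 2 heptamers chosen after its values were seen, was at 752, 358 and 409 CPM in PAC-CM-KD replicates 1 to 3, against 232, 363 and 279.6 CPM in PAC-CM replicates 1 to 3 (log2 fold change 0.84, SE 0.349, adjusted p = 0.359). Without kinsenoside replicate 1 it was 0.44, and Cxcl1, another neutrophil attractant chosen after its values were seen, was at 0.31 with that replicate and 0.06 without it. The same library was the highest of its group for 6 of the 10 regulators, and a link between these was not tested. Of the 7, Ccl4 and Ccl3 had an unadjusted edgeR p under 0.05 (0.0211 and 0.029), against 14.9% of all tested genes. Ccl4 was at 85.1, 65.1 and 50.9 CPM with kinsenoside and 47.5, 43.0 and 51.4 CPM without (log2 fold change 0.55). Ccl3 was at 121, 107 and 69.0 CPM with kinsenoside and 74.2, 65.2 and 68.1 CPM without (0.56). In both, kinsenoside replicate 3 was inside the PAC-CM range and the others above it. Among 13 tested cytokines 9 estimates lay below 0, with a median of -0.26. Il6 and Il12b, named above as targets of Regnase-1, had 0.00 and 0.60 (edgeR adjusted p = 0.996 and 0.52).

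Over tested genes with an annotated 3′ UTR, the median log2 fold change lay between -0.02 and 0.00 in each class of heptamer number. The median log2 fold change was 0.00 for 473 tested genes with 3 or more heptamers and -0.01 for 8243 with 0. Within the list, the median was -0.19 for 14 genes with 3 or more, of which 9 lay below 0, 0.84 for 3 genes with 2, 0.28 for 6 genes with 1 and -0.03 for 9 genes with 0, in no steady order. This is a description, and no association between heptamers and fold change was tested. The 3′ UTR length moved with the count: the median length was 3161 bases with 3 or more heptamers and 859 bases with 0 over all tested genes.

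**Figure D4:**
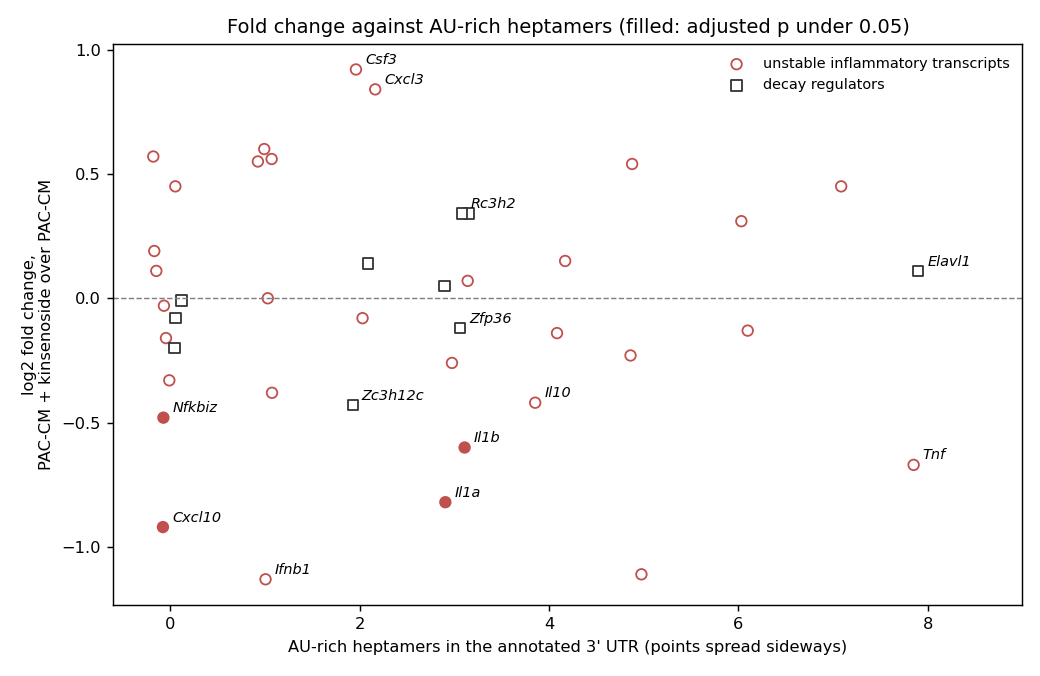
Log2 fold change of PAC-CM-KD over PAC-CM (vertical axis, edgeR) against the number of AU-rich heptamers in the annotated 3′ UTR (horizontal axis, points spread sideways) for the tested unstable transcripts (circles) and the 10 regulators (squares); filled points have an adjusted p under 0.05. Il1a and Il1b, with 3 heptamers each, Tnf, with 8, and Cxcl10, with 0, lie below 0, and Elavl1, with 8, lies at 0.11.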

How the data were processed

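The authors deposited raw counts for each Ensembl gene and library. Among the tools in the submitters' processing notes are StringTie 1.3.1c, STAR and DESeq2 1.16.1, and the build is GRCm38. The counting tool and its use of strand are not stated there; reads of overlapping genes may have been split between them. Counts were tested as deposited with edgeR 4.0.16 (R 4.3.3): filterByExpr (13901 genes), TMM scaling, robust quasi-likelihood fits on the group alone, two-sided tests, adjustment over all tested genes. Standard errors were taken as the size of the estimate over the root of its F statistic. DESeq2 1.42.0, limma-voom (limma 3.58.1), other scalings and filters, a replicate block, non-robust estimates and leaving out each library were alternatives. The script was tested on simulated data. Coordinates, lengths and UTRs are from GENCODE M21. Named genes are the regulators and, per list, all called genes or, where fewer than 4 were called, the 4 of smallest p, plus the 3 genes nearest in pattern to the regulators of smallest p and of highest mean CPM. Members and lists were chosen with earlier results of these data known. One lymphocyte marker is not reported here.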

Additional observations from a re-analysis of the deposited data

How the results depend on the processing

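No regulator passed in the edgeR fits or in the limma-voom fit, and DESeq2 called 1. All 10 kept the direction of their estimates in all 15 alternatives except Zfp36l2 and Khsrp, both close to 0. Zfp36l2 was at -0.015 without PAC-CM replicate 3 and -0.085 without PAC-CM-KD replicate 1, and over all libraries left out it lay between -0.085 and 0.128. Khsrp was at 0.001 with DESeq2 and with RLE scaling, and between -0.072 and 0.030 with a library left out. Calls over all genes numbered 71, and 490 with DESeq2, 39 with limma-voom, 42 with the replicate block, 36 with non-robust estimates, 11 at an adjusted p under 0.01 and between 13 (without PAC-CM replicate 1) and 98 (without PAC-CM-KD replicate 1) with a library left out. Of the 71 calls 40.8% were higher, and 28.4% with total count scaling, 52.8% with non-robust estimates and between 48% (without PAC-CM-KD replicate 1) and 75% (without PAC-CM-KD replicate 2) with a library left out, so the balance of directions was not stable. Calls among unstable transcripts numbered 4, and 8 with DESeq2, 2 with limma-voom and with non-robust estimates, 1 at an adjusted p under 0.01 and 1 to 4 with a library left out. Among the 68 pathway genes, 0 were called, and 1 (Mapkapk2) with DESeq2, total count scaling, no filter and the replicate block, and 0 to 1 with a library left out. Replicate numbers gave no clear pairing of the libraries: deviations from the group means correlated across genes at 0.00874, -0.101 and 0.135 for equal numbers, and PAC-CM-KD replicate 1 correlated best with PAC-CM replicate 2 (0.164). With 3 libraries per group such correlations cannot exclude a shared culture, mouse or batch. Ranking by longest coding transcript, chosen after seeing the data, kept 2 of 10 ranks.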
